A study of Mus musculus with 17 samples.

Results

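Ly6a, Clu, Anxa1, Anxa2, Anxa3, Anxa8 and S100a6 are genes used as markers of injured or fetal-like intestinal epithelium, and they were followed here over all arrays of a study of irradiated intestinal cells. They were taken as the probes whose gene name in the scanner files is one of these 7 symbols, which gave 9 of the 55681 non-control probes and 7 of the 27769 genes tested. Cells sorted as LGR5hi and as LGR5lo came from LGR5-GFPki mice, which carry a GFP reporter of Lgr5, and were collected 3 h after 12 Gy of gamma irradiation or without irradiation. RNA was measured on 1-colour arrays, 1 sample per array. There were 4 irradiated LGR5hi samples, 4 non-irradiated LGR5hi samples, 4 irradiated LGR5lo samples and 5 non-irradiated LGR5lo samples, with both sexes in every group and the reporter in all of them. Age, sorting gates and pooling of animals are not given in the sources used here, and the labels do not say that samples are separate animals, so p-values measure the spread between these samples, which may be technical. Sorted cells are bulk samples, so fewer cells of a type and less RNA per cell cannot be told apart.

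As background, crypt epithelium that has lost stem cells can enter a transient state that resembles fetal gut, with Wnt target genes low and YAP/TEAD and AP-1 target genes high. Ly6a encodes Sca-1, a surface protein anchored by glycosylphosphatidylinositol that is used to sort such cells, and Clu encodes clusterin, a secreted chaperone that marks the rare revival stem cells of the mouse intestine. Annexins bind phospholipid membranes in the presence of calcium, and S100 proteins are small calcium sensors, several of which bind annexins.

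Values are normalized log2 signals: the log2 of the processed fluorescence intensity minus the array's own 75th percentile, so 0 is that percentile and a step of 1 is a 2-fold change. Each gene is represented by its brightest probe over all arrays (called the tested probe), and differences were tested with limma across 27769 genes, with Benjamini-Hochberg adjustment over all of them and a threshold of 0.05. The 75th percentile lay between intensities of 286 and 627 on the 16 arrays with an intact scanner file. On those arrays 58.9% to 95.6% of spots were well above background. The highest share belonged to non-irradiated LGR5lo replicate 2, against 73.9% on the next array. For the tested probes of the injury markers, LGR5lo irradiation effects, their difference from LGR5hi effects and non-irradiated sort differences are also given without that array. Such values are not given for second probes, Lgr5, Cdkn1a, other family members or the gene lists. Their non-irradiated LGR5lo means include that array. Both checks of the labels held: Lgr5, the receptor used for the sort, was higher in LGR5hi than in LGR5lo cells in each arm (2.71 against -0.18 after 12 Gy, 4.23 against 1.09 without), and Cdkn1a, a p53 target, was 4.91 ± 0.31 (SE) higher after irradiation in LGR5hi cells and 2.90 ± 0.30 higher in LGR5lo cells. By its tested probe Lgr5 itself was lower after 12 Gy, with a difference of -1.53 ± 0.29 (SE, limma adjusted p = 0.00188) in LGR5hi and -1.27 ± 0.28 (adjusted p = 0.00962) in LGR5lo cells. A second, dimmer Lgr5 probe differed by -1.74 ± 0.60 and -1.86 ± 0.57. Neither passed when adjusted over all probes kept (limma adjusted p = 0.0755 and 0.0663). It was well above background on 0 of 4 irradiated LGR5lo arrays. The 22 markers of crypt epithelium and LGR5 stem cells were well above background on every array with background calls.

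Probe sequences are shown where the reading of a result depends on what a probe binds: for Ly6a beside its family member Ly6c1, and for Anxa1 and Anxa8, which have 2 probes each. The first 30 bases of each 60-base probe are printed as the scanner file lists them, in lower case because no base is marked, with mm9 coordinates from the same file. Exon and UTR positions are not annotated in the files.
Ly6a, chr15:74825553-74825612, minus strand: tatgagttatagaagctccaaggtgggagt
Ly6c1, chr15:74875495-74875554: tattatagtatcaccatccacacataagta
Anxa1 tested probe, chr19:20447938-20447997, minus strand: gccccataagcaagtcactttggtaccatt
Anxa1 second probe, chr19:20449722-20449781, minus strand: tgacatgaatgaaatcaaagtattttacca
Anxa8 tested probe, chr14:34913661-34913720, plus strand: atcctctgatcgtggtctccgagcctgaag
Anxa8 second probe, chr14:34913148-34913207, plus strand: gtataccgcccaccctagcattacctctga
The other 4 genes have 1 probe each, Anxa2 at chr9:69339532-69339591 and Anxa3 at chr5:97253925-97253984, S100a6 at chr3:90418160-90418219 and Clu at chr14:66600325-66600382, all on the plus strand. No other probe on the array shares a run of 20 bases with any of the 9 probes.

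All 7 markers rose with irradiation in LGR5hi cells and 6 of 7 rose in LGR5lo cells, already at 3 h. Across all genes, 6.18% were called higher in LGR5hi cells and 4.47% in LGR5lo cells. The median difference of the 7 markers was 3.26 in LGR5hi cells against -0.02 over all genes, and 1.41 in LGR5lo cells against -0.13 over all genes. By the tested probes Anxa8 and Ly6a moved most, and Anxa1 in LGR5lo cells was the one comparison that did not pass. The tested probes of all 7 genes were well above background on every array with background calls, so none of their values there is a bound. Non-irradiated LGR5hi replicate 1 has no background calls.

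**Figure D1:**
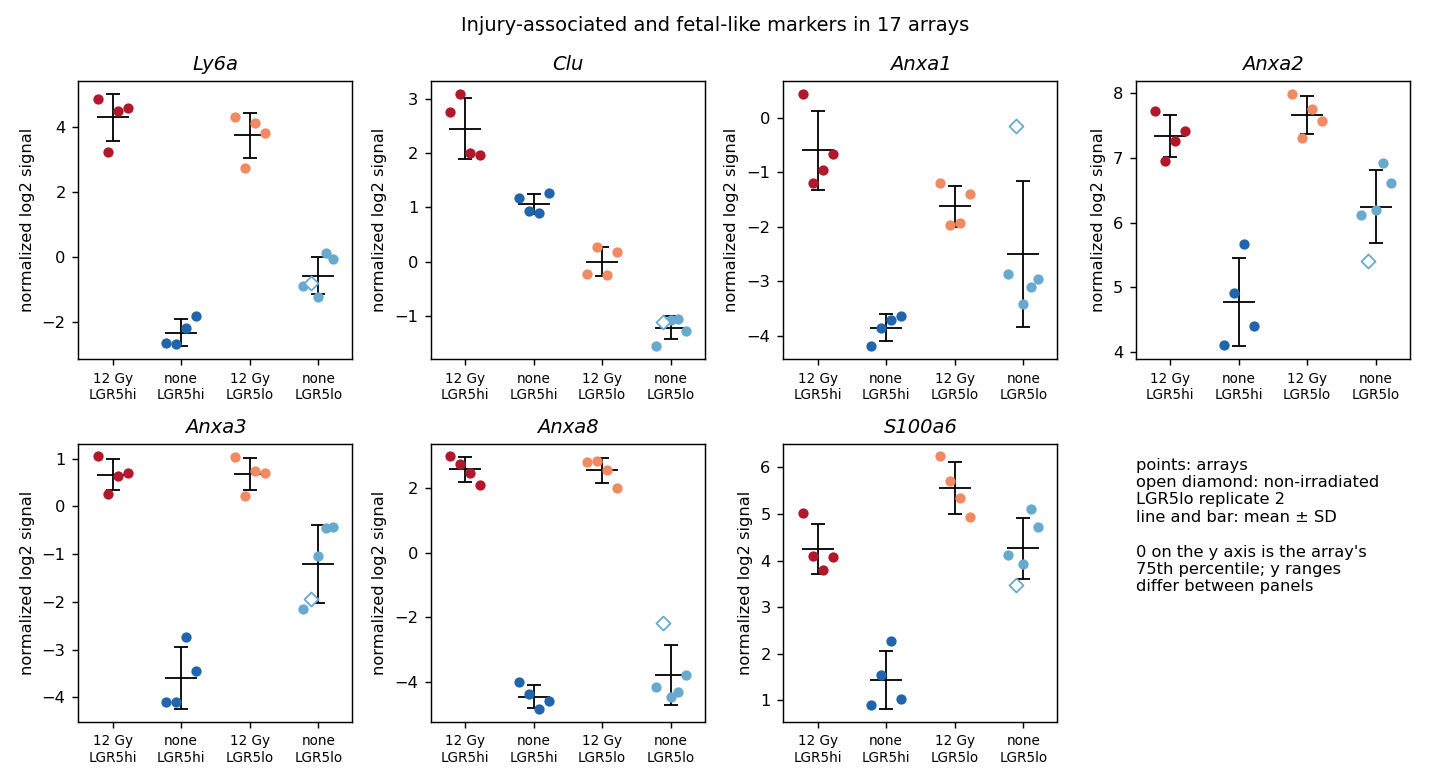
Normalized log2 signal (y axis, 0 is the array's 75th percentile) of the tested probe of each gene in the 4 groups (x axis), 1 point per array, with the mean and SD as line and bar. In LGR5hi cells the irradiated arrays lie above the non-irradiated ones for all 7 genes, and in LGR5lo cells for 5 of 7, since Anxa1 and S100a6 overlap there.

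Ly6a read 4.86, 3.21, 4.50 and 4.57 in the irradiated LGR5hi samples, against -2.64, -2.69, -2.19 and -1.81 in the non-irradiated ones. In LGR5lo cells it read 4.30, 2.72, 4.10 and 3.82 after 12 Gy, against -0.90, -0.79, -1.24, 0.13 and -0.08 without. Every irradiated sample was far above every non-irradiated sample of its sort, and replicate 2 was the lowest of the irradiated samples in both sorts. The difference was 6.62 ± 0.41 (SE, 98.2-fold, limma adjusted p = 3.48e-08) in LGR5hi cells, the 13th largest rise of the 27769 genes. In LGR5lo cells it was 4.31 ± 0.39 (19.8-fold, limma adjusted p = 4.04e-06). Within slide 1 and slide 2 alone the LGR5hi difference was 6.70 and 6.53, and the LGR5lo difference 4.35 and 4.51.

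Clu read 2.75, 3.1, 2.01 and 1.96 in irradiated LGR5hi samples, against 1.17, 0.93, 0.89 and 1.27 in non-irradiated ones. In LGR5lo samples it read -0.23, 0.27, -0.25 and 0.18 after 12 Gy, against -1.57, -1.11, -1.07, -1.06 and -1.29 without. The groups did not overlap in either sort, and non-irradiated LGR5hi cells already held more Clu signal than irradiated LGR5lo cells. Clusterin's rise was the smallest of the 7 in LGR5hi cells, at 1.39 ± 0.24 (2.62-fold, limma adjusted p = 0.000776), and a similar 1.21 ± 0.23 (2.32-fold, adjusted p = 0.00312) in LGR5lo cells. Within slides it was 1.88 and 0.90 in LGR5hi cells, and 1.36 and 1.03 in LGR5lo cells. None of these passed on a slide alone (limma adjusted p = 0.0627 and 0.0782 in LGR5hi, 0.228 and 0.0962 in LGR5lo cells).

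Anxa1, an annexin that acts in the resolution of inflammation, read 0.45, -1.19, -0.96 and -0.66 in irradiated LGR5hi samples, against -4.20, -3.86, -3.71 and -3.65 in non-irradiated ones. The LGR5lo samples read -1.20, -1.96, -1.93 and -1.41 after 12 Gy, against -2.87, -0.15, -3.42, -3.11 and -2.95 without. One non-irradiated LGR5lo sample, replicate 2, lay above all 4 irradiated ones, while the other non-irradiated samples lay below them. The difference was 3.26 ± 0.56 (9.61-fold, limma adjusted p = 0.000776) in LGR5hi cells and 0.88 ± 0.53 in LGR5lo cells, which was not called (adjusted p = 0.307). Without replicate 2, the array that stands apart in its spots above background, the LGR5lo difference was 1.46 and was called (adjusted p = 0.00553), as it was with array weights on all arrays (1.49, adjusted p = 0.0142). Within slides the LGR5hi difference was 3.66 and 2.87, while the LGR5lo difference was -0.08 on slide 1, which holds replicate 2, and 1.60 on slide 2.

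The second Anxa1 probe gave -1.38, -3.17, -2.57 and -2.12 in irradiated LGR5hi samples (mean -2.31), against -5.78, -5.54, -6.93 and -6.03 in non-irradiated ones (mean -6.07). It was not well above background on any non-irradiated LGR5hi array with background calls, so the rise has only a bound there, at least 8.74-fold, taking for the dim group on each array the higher of its own signal and the lowest signal well above background. Its LGR5lo difference of 1.40 ± 0.41 narrowly missed the threshold when adjusted over the 41440 probes kept (limma adjusted p = 0.0553), and its LGR5hi difference passed (adjusted p = 2.64e-05). Both probes thus gave a call in LGR5hi cells and neither did in LGR5lo cells with all arrays in.

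Anxa2, an annexin that links membranes to the actin cytoskeleton, read 7.72, 6.96, 7.27 and 7.43 in irradiated LGR5hi samples, against 4.11, 4.91, 5.67 and 4.39 in non-irradiated ones. In LGR5lo samples it read 8.0, 7.31, 7.77 and 7.58 after 12 Gy, against 6.11, 5.41, 6.20, 6.92 and 6.61 without. The groups did not overlap in either sort, and the irradiated samples of both sorts covered a narrow range. The differences were 2.58 ± 0.34 (5.96-fold, limma adjusted p = 7.72e-05) in LGR5hi and 1.41 ± 0.32 (2.66-fold, adjusted p = 0.0133) in LGR5lo cells. The second call was lost without irradiated LGR5lo replicate 1 (adjusted p = 0.052). Within slides the values were 2.83 and 2.32 in LGR5hi, and 1.89 and 1.11 in LGR5lo cells.

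Anxa3, an annexin that inhibits phospholipase A2 in vitro, read 1.05, 0.26, 0.63 and 0.71 in irradiated LGR5hi samples, against -4.09, -4.10, -2.74 and -3.45 in non-irradiated ones. The LGR5lo samples read 1.03, 0.22, 0.74 and 0.70 after 12 Gy, against -2.16, -1.94, -1.04, -0.45 and -0.43 without. Irradiated samples of the 2 sorts read nearly alike, whereas the non-irradiated ones differed. The rise was 4.26 ± 0.40 (19.1-fold, limma adjusted p = 2.67e-06) in LGR5hi and 1.88 ± 0.38 (3.68-fold, adjusted p = 0.00557) in LGR5lo cells. Within slides it was 4.75 and 3.76 in LGR5hi, and 2.68 and 1.47 in LGR5lo cells.

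Anxa8, an annexin first described as an inhibitor of blood coagulation, read 2.98, 2.75, 2.47 and 2.10 in irradiated LGR5hi samples, against -4.00, -4.39, -4.85 and -4.59 in non-irradiated ones. In LGR5lo samples it read 2.81, 2.83, 2.56 and 2.0 after 12 Gy, against -4.17, -2.17, -4.48, -4.30 and -3.80 without. The groups lay far apart in both sorts, and non-irradiated LGR5lo replicate 2 was again the highest of its group. By the tested probe, the Anxa8 difference in LGR5hi cells was 7.03 ± 0.40 (131-fold, limma adjusted p = 1.84e-08). This was the 9th largest rise of the 27769 genes. In LGR5lo cells the difference was 6.34 ± 0.38 (80.9-fold, adjusted p = 5.31e-08), the 6th largest. Within slides the values were 7.06 and 7.0 in LGR5hi, and 5.99 and 6.67 in LGR5lo cells.

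The second Anxa8 probe gave 0.57, 0.23, 0.57 and -0.42 in irradiated LGR5hi samples, against -2.69, -2.41, -2.76 and -2.76 in non-irradiated ones. In LGR5lo samples it gave 0.72, 0.50, 0.62 and 0.31 after 12 Gy, against -2.75, -0.28, -3.05, -1.92 and -2.19 without. The direction was the one of the tested probe, but the size was much smaller, at 2.89 ± 0.43 (7.43-fold) in LGR5hi and 2.57 ± 0.41 (5.96-fold) in LGR5lo cells. Without irradiation the second probe was the brighter one (mean -2.66 against -4.46 in LGR5hi cells). After 12 Gy it was the dimmer one (0.24 against 2.57). The brightest-probe rule thus took the probe with the larger rise. By its second probe, Anxa8 rose less in LGR5hi cells than Ly6a, Anxa3 and Anxa1. The size of the Anxa8 rise therefore depends on the probe, and the reason was not tested.

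**Figure D2:**
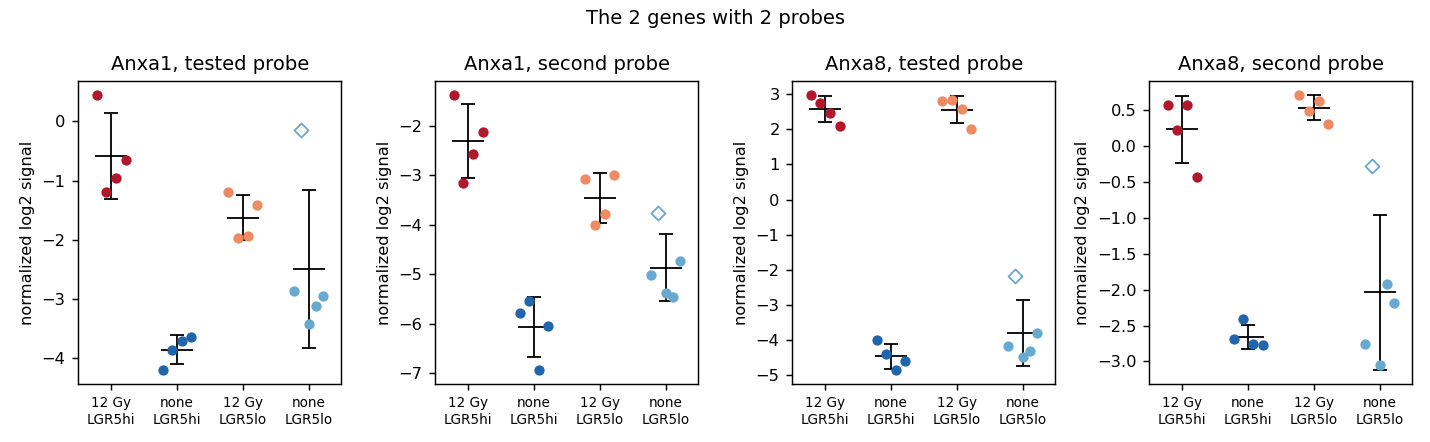
Normalized log2 signal (y axis) of the tested and the second probe of Anxa1 and of Anxa8 in the 4 groups (x axis), 1 point per array with mean and SD, and non-irradiated LGR5lo replicate 2 as an open diamond. Both Anxa8 probes rise after 12 Gy in both sorts, by 7.03 and 2.89 in LGR5hi cells, and the open diamond is the highest non-irradiated LGR5lo point in all 4 panels.

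S100a6, or calcyclin, a calcium sensor that binds annexins including annexin A2, read 5.02, 4.10, 3.80 and 4.07 in irradiated LGR5hi samples, against 0.90, 1.55, 2.27 and 1.02 in non-irradiated ones. In LGR5lo samples it read 6.24, 5.70, 5.35 and 4.94 after 12 Gy, against 4.11, 3.47, 3.92, 5.11 and 4.72 without. The groups were apart in LGR5hi cells and overlapped in LGR5lo cells, where irradiated replicate 4 lay below non-irradiated replicate 4. The rise was 2.81 ± 0.40 (7.03-fold, limma adjusted p = 0.000147) in LGR5hi cells. In LGR5lo cells it was 1.29 ± 0.38 (2.45-fold) and only just passed (adjusted p = 0.0494), a call that was lost in 13 of 17 fits leaving out 1 array (adjusted p up to 0.159, without irradiated LGR5lo replicate 1) and with the arm and replicate number as a random block (adjusted p = 0.0564). The call was kept only without irradiated LGR5hi replicate 1, non-irradiated LGR5hi replicate 3, irradiated LGR5lo replicate 4 or non-irradiated LGR5lo replicate 4. On all arrays it was also lost with quantile normalization, normexp, no filter on dim probes, the mean or the dimmest of a gene's probes, slide or number as a block, and only the groups compared (adjusted p = 0.123 in the last). Within slides the values were 3.34 and 2.29 in LGR5hi, and 2.18 and 0.63 in LGR5lo cells.

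**Figure D3:**
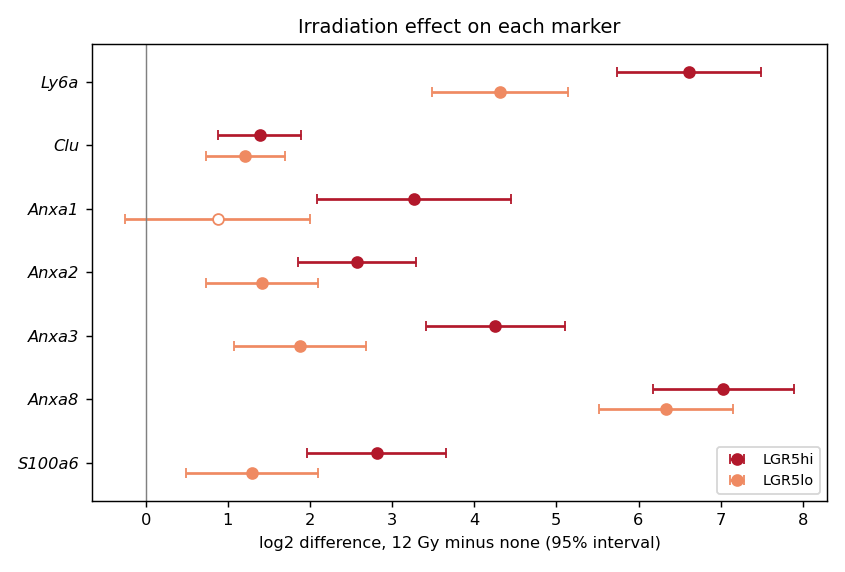
Difference in normalized log2 signal, 12 Gy minus none (x axis), with 95% intervals for each gene in LGR5hi and in LGR5lo cells. Filled points passed the adjusted threshold, and Anxa1 in LGR5lo cells, at 0.88, is the single open point.

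By counts of groups that did not overlap, all 7 genes were higher after 12 Gy in LGR5hi cells (10.8% of all genes) and 5 of 7 in LGR5lo cells (5.94% of all genes). Without non-irradiated LGR5lo replicate 2, the LGR5lo differences of Ly6a, Clu, Anxa2, Anxa3 and Anxa8 were 4.26, 1.24, 1.20, 1.69 and 6.74 and kept their calls, while S100a6, at 1.09, lost its call (adjusted p = 0.0859). In all, 6 of 7 were called higher in both sorts, Anxa1 being the exception, where 3.61% of all genes were. The estimate of the irradiation effect was higher in LGR5hi than in LGR5lo cells for all 7 genes, but 0 of 7 passed the test of that difference with limma, where 0.0396% of all genes did. At an unadjusted p below 0.05 it was 5 of 7, against 6.81% of all genes, and 54.9% of all genes had a difference above 0. The largest differences of effect were 2.39 ± 0.77 (95% interval 0.76 to 4.02) for Anxa1 and 2.38 ± 0.55 (1.22 to 3.54, limma adjusted p = 0.221) for Anxa3. Ly6a followed with 2.31 ± 0.57 (1.10 to 3.51, adjusted p = 0.273), S100a6 with 1.52 ± 0.55 and Anxa2 with 1.16 ± 0.47. For Anxa8, at 0.69 (interval -0.49 to 1.88), and Clu, at 0.18 (-0.52 to 0.87), the interval includes 0. Without non-irradiated LGR5lo replicate 2 the difference of effects was 1.80 for Anxa1 and 0.29 for Anxa8, 2.56 for Anxa3, 2.36 for Ly6a, 1.72 for S100a6, 1.37 for Anxa2 and 0.15 for Clu, and still 0 of 7 passed with limma. Within slides 1 and 2 it was 3.73 and 1.27 for Anxa1, and 1.07 and 0.33 for Anxa8. With the random block of arm and number, used since same-numbered LGR5hi and LGR5lo samples of an arm deviated together, Anxa3 passed (2.33, adjusted p = 0.0493), as it did with array weights (2.49, adjusted p = 0.0309).

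The sorts were also compared with each other in each arm. Without irradiation, 4 of 7 were lower in LGR5hi than in LGR5lo cells (4.93% of all genes were called lower) and 1 of 7, Clu, was higher (4.62% of all genes). The difference, LGR5hi minus LGR5lo, was -2.83 ± 0.38 for S100a6 (limma adjusted p = 0.00014), -2.40 ± 0.38 for Anxa3 (adjusted p = 0.000603), -1.76 ± 0.39 for Ly6a (adjusted p = 0.00927) and -1.48 ± 0.32 for Anxa2 (adjusted p = 0.00809). For Clu it was 2.29 ± 0.23, 4.88-fold higher in LGR5hi cells (limma adjusted p = 8.75e-06). Anxa1 (-1.35 ± 0.53, adjusted p = 0.123) and Anxa8 (-0.67 ± 0.38, adjusted p = 0.287) did not pass. Without non-irradiated LGR5lo replicate 2 they were -0.77 and -0.27, and within slides 1 and 2 Anxa1 was -2.52 and -0.41 and Anxa8 -1.03 and -0.33. The 5 calls held without that array, at -3.03 for S100a6, -2.58 for Anxa3, -1.81 for Ly6a, -1.69 for Anxa2 and 2.31 for Clu. On all arrays the call of Ly6a was lost with normexp background correction (-1.23, adjusted p = 0.117) and that of Anxa3 with quantile normalization (-1.87, adjusted p = 0.0661). The call of Anxa2 was lost with median centring (-1.24, adjusted p = 0.0683) and with only the groups compared in the fit (adjusted p = 0.0719). The groups did not overlap for S100a6, Anxa3, Ly6a and Anxa1, lower in LGR5hi cells (5.17% of all genes), and for Clu, higher (5.70%), whereas those of Anxa2 and Anxa8 overlapped.

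After 12 Gy only Clu remained apart by the test, 2.46 ± 0.24 or 5.51-fold higher in LGR5hi cells (limma adjusted p = 8.01e-06), where 2.21% of all genes were called higher. None of the 7 was called lower, against 4.09% of all genes, although 1 of 7, S100a6, had an unadjusted p below 0.05. S100a6 differed by -1.31 ± 0.40 (adjusted p = 0.0669), and it passed with the random block of arm and number (adjusted p = 0.0252) or without irradiated LGR5hi replicate 1 (-1.57, adjusted p = 0.0408). The other 5 genes had intervals that include 0: Ly6a 0.55 (-0.33 to 1.42), Anxa1 1.03 (-0.15 to 2.22), Anxa2 -0.32 (-1.04 to 0.40), Anxa3 -0.02 (-0.86 to 0.83) and Anxa8 0.02 (-0.84 to 0.88). For Anxa1 and for Clu the 4 LGR5hi samples lay above the 4 LGR5lo samples (11.1% of all genes). Without irradiation the order for Anxa1 was the reverse. After 12 Gy the Anxa1 groups were barely apart, with the lowest LGR5hi sample at -1.19 and the highest LGR5lo sample at -1.20. Without non-irradiated LGR5lo replicate 2, which is in neither group but adds to the shared spread, Anxa1 (adjusted p = 0.0382) and S100a6 (adjusted p = 0.036) passed, and without non-irradiated LGR5lo replicate 4 S100a6 did (adjusted p = 0.0472). With array weights both passed on all arrays (adjusted p = 0.0186 for Anxa1 and 0.0221 for S100a6), and S100a6 also with only the groups compared (adjusted p = 0.0413). By mean level, the groups thus ran, for Clu, irradiated LGR5hi (2.46), non-irradiated LGR5hi (1.07), irradiated LGR5lo (-0.01) and non-irradiated LGR5lo (-1.22), each neighbouring pair apart by more than its SDs of 0.19 to 0.56. For Ly6a, Anxa3 and Anxa8 the irradiated groups of both sorts stood together at the top, with non-irradiated LGR5lo next and non-irradiated LGR5hi lowest, the last pair being apart by the test for Ly6a and Anxa3 but not for Anxa8. S100a6 put irradiated LGR5lo first (5.56), then irradiated LGR5hi and non-irradiated LGR5lo close together (4.25 and 4.26), then non-irradiated LGR5hi (1.43).

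**Figure D4:**
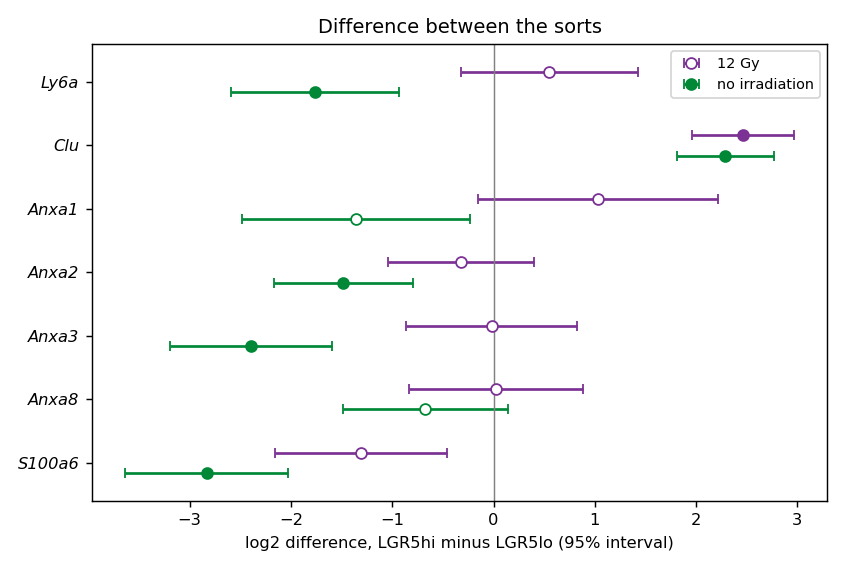
Difference in normalized log2 signal, LGR5hi minus LGR5lo (x axis), with 95% intervals for each gene after 12 Gy and without irradiation. Without irradiation S100a6, Anxa3, Ly6a and Anxa2 lie below 0 and Clu above it, and after 12 Gy only Clu is a filled (called) point.

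Markers of other cell types moved with the sort. In LGR5hi against LGR5lo cells, all 15 enteroendocrine markers were lower in both arms (medians -4.18 after 12 Gy and -3.74 without), as were 8 of 10 goblet markers in both arms, and 8 of 10 tuft markers after 12 Gy and 10 of 10 without. The mean level of the enteroendocrine list ranged from -0.32 to -0.06 in irradiated and -0.27 to 0.62 in non-irradiated LGR5hi samples, against 3.87 to 4.60 in irradiated and 3.67 to 4.18 in non-irradiated LGR5lo samples. Of 26 leukocyte markers, 7 were lower and 2 higher in LGR5hi cells without irradiation, and 0 passed in either direction with limma after 12 Gy (3 at an unadjusted p below 0.05). Their part in the differences of Ly6a, Anxa2, Anxa3 and S100a6 between the sorts was not tested.

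The same lists were examined for the irradiation effect. None of the 10 goblet or 10 tuft markers was called in either sort with limma (at an unadjusted p below 0.05, 1 tuft marker in LGR5lo cells), and of 26 leukocyte markers 3 were called higher in each sort, among them Ly6g and Cd14, with 3 lower in LGR5lo cells. Of 15 enteroendocrine markers 2 were higher and 2 lower in each sort, and in LGR5hi cells 1 of 10 Paneth markers was higher and 1 lower, and 1 of 16 enterocyte markers lower. Their part in the irradiation differences was not tested. Ptprc, the pan-leukocyte surface phosphatase, had a difference of 0.44 ± 0.44 (limma adjusted p = 0.665) in LGR5hi cells and -0.88 ± 0.42 (adjusted p = 0.208) in LGR5lo cells. The mean leukocyte level ranged from -1.59 to -0.99 in irradiated against -1.80 to -1.51 in non-irradiated LGR5hi samples, and from -1.48 to -1.15 in irradiated against -1.53 to -0.26 in non-irradiated LGR5lo samples. Of 21 stromal and endothelial markers on the array, 6 (Cdh5, Emcn, Col1a1, Pdgfra, Lum and Fn1) did not reach the filter of 4 arrays above background, and of the 15 tested only Vim was called, 1.27 higher in LGR5lo cells. Female and male samples did not differ by the test in any of the 7 genes (0 of 7 with limma, 0.122% of all genes). At an unadjusted p below 0.05 it was 1 of 7 against 8.61% of all genes, the 1 being Ly6a, 0.68 ± 0.23 lower in females on the log2 scale, a difference that did not pass after adjustment.

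Within the gene families the markers belong to, the rise was not shared by all members. Of the 8 other annexins, 1 rose in LGR5hi cells (Anxa5, 1.82 ± 0.30, limma adjusted p = 0.000599) and 0 in LGR5lo cells (limma, with 3 at an unadjusted p below 0.05), with medians of 0.30 and 0.33. Anxa4, Anxa6, Anxa11 and Anxa13 had differences between -0.11 and 0.36 in both sorts. The other 3 were not called either but had higher values in at least 1 sort, with 1.24 ± 0.49 in LGR5hi and 1.26 ± 0.47 in LGR5lo cells for Anxa9, 0.31 ± 0.66 and 1.38 ± 0.63 for Anxa7, and 1.60 ± 0.89 and 0.29 ± 0.84 for Anxa10. Of 12 other S100 genes, 7 rose in each sort and none fell, with medians of 1.05 in LGR5hi and 0.84 in LGR5lo cells. S100a14 rose by 4.11 ± 0.30 in LGR5hi (limma adjusted p = 1.85e-07) and 2.09 ± 0.28 in LGR5lo cells (adjusted p = 0.000207). S100a11, a known partner of annexin A1, rose by 2.46 ± 0.22 and 2.25 ± 0.21, and S100a10, the partner of annexin A2 at the plasma membrane, by 1.38 ± 0.19 and 1.29 ± 0.18 in LGR5hi and LGR5lo cells.

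Of 24 other Ly6/uPAR genes, 7 were higher and 1 lower in LGR5hi cells, and 5 were higher and 2 lower in LGR5lo cells, with medians of 0.32 and -0.08. Plaur, the urokinase receptor, was 4.94 ± 0.33 higher in LGR5hi (limma adjusted p = 7.58e-08) and 2.88 ± 0.31 higher in LGR5lo cells (adjusted p = 2.81e-05). Ly6f was 4.20 ± 0.44 and 3.44 ± 0.42 higher, Ly6g 4.67 ± 0.66 and 2.88 ± 0.63, while Ly6e, at 0.38 ± 0.22 and 0.48 ± 0.21, was not called. Ly6g is also a neutrophil marker, and S100a9, another one, was 3.06 ± 1.02 higher in LGR5hi (adjusted p = 0.0607, not called) and 3.58 ± 0.97 higher in LGR5lo cells (adjusted p = 0.0338). S100a8, which pairs with S100a9 in neutrophils, did not reach that filter of 4 arrays above background and was not tested.

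**Figure D5:**
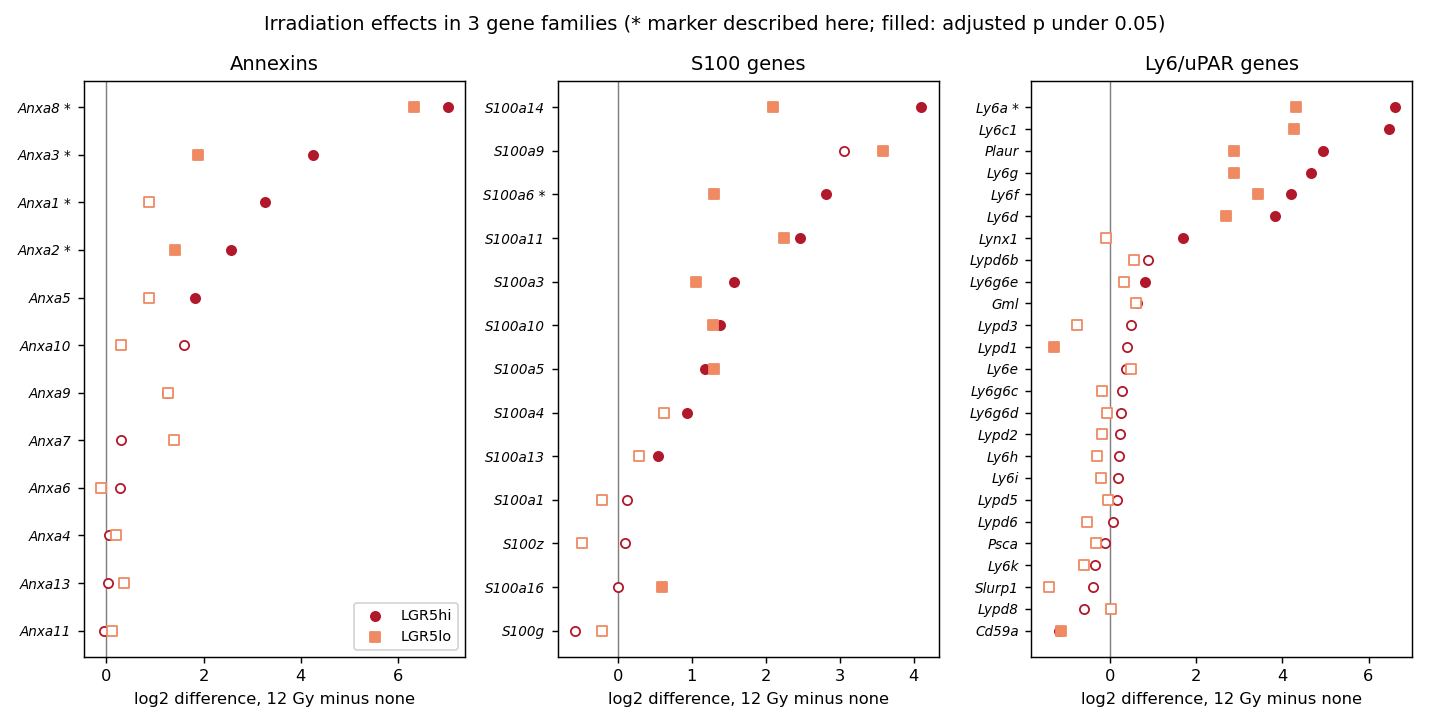
Irradiation effect (x axis, difference in normalized log2 signal, 12 Gy minus none) for every tested annexin, S100 and Ly6/uPAR gene (y axis, ordered by the LGR5hi value) in LGR5hi (circles) and LGR5lo (squares) cells, with filled symbols for an adjusted p under 0.05 and an asterisk for the markers described here. By the tested probes, Anxa8 and Ly6a top their families in both sorts, but Ly6a and Ly6c1 are not told apart. Ly6a stands at 6.62 ± 0.41 and Ly6c1 at 6.48 ± 0.39 in LGR5hi cells, and at 4.31 ± 0.39 and 4.26 ± 0.37 in LGR5lo cells. Of the other annexins only Anxa5 in LGR5hi cells has a filled symbol.

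Ly6c1 was nearest to any of the 7 genes. Its tested probe read 5.75, 4.02, 5.03 and 4.95 in irradiated LGR5hi samples, against -2.06, -1.63, -1.45 and -1.04 in non-irradiated ones. In LGR5lo samples it read 4.82, 3.64, 4.68 and 4.42 after 12 Gy, against 0.00, -0.45, -0.46, 0.82 and 0.72 without. After centring each gene on its mean over the 17 arrays, the root mean square distance between Ly6a and Ly6c1 was 0.19, against 0.87 for the next gene, Robo3, and 0.88 for Plaur. The best local match between the probes printed above held 11 identical bases of 14, with a longest shared run of 6. The second Ly6c1 probe rose less, by 3.21 ± 0.43 in LGR5hi and 1.87 ± 0.41 in LGR5lo cells. These genes are paralogs that lie beside each other on chromosome 15, and which transcripts each probe binds in these cells was not tested, so the Ly6 values are given as probe signals.

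By the same distance, the nearest genes of the 17928 compared were Lamb3 (0.51), Pdgfa (0.56) and Emp2 (0.60) for Clu, and Tchh (0.59), Slc2a6 (0.64) and Gprc5b (0.65) for Anxa1. For Anxa2 they were Sdcbp2 and Ddn (both 0.28) and Efnb2 (0.31), for Anxa3 Serpinb5 (0.44), S100a14 (0.47) and Mx1 (0.53). Anxa8 was nearest to Dhh (0.58), to Areg (0.62), which encodes the EGF receptor ligand amphiregulin, and to Inka2 (0.68). S100a6 was nearest to Vstm2l (0.45), Gch1 (0.57) and Anxa5 (0.58). Among the 7 markers, S100a6 and Anxa2 were nearest to each other (0.66), then Anxa2 and Anxa3 (0.69), and Clu and Anxa8 were farthest apart (2.99). These distances describe 17 arrays that share the 4 groups, and all 7 genes were chosen as injury markers.

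Other fetal-like and injury-associated genes moved the same way: of 45 tested, 24 rose and 0 fell in LGR5hi cells (median 1.32), and 20 rose and 0 fell in LGR5lo cells (median 1.05). The 4 with the smallest p in LGR5hi cells were Crip2 (7.34 ± 0.23), Tubb6 (8.35 ± 0.50), Areg (7.31 ± 0.45) and Plaur. In LGR5lo cells Crip2 (6.21 ± 0.21), Areg (5.97 ± 0.42), Tubb6 (6.66 ± 0.48) and Cd44 (2.24 ± 0.17), the hyaluronan receptor, led. Ly6a is also induced by interferon in many mouse cells, and the part of interferon in its rise was not tested. Across all genes, 6.18% were called higher in LGR5hi cells and 4.47% in LGR5lo cells. Of 32 interferon-response genes, 6 were higher and 2 lower in LGR5hi cells (median -0.05). In LGR5lo cells 6 of them were higher and 0 lower (median -0.02). Those higher were led in LGR5hi cells by Mx1 (4.65 ± 0.45, limma adjusted p = 3.83e-06) and the chemokine gene Cxcl10 (5.95 ± 0.87, adjusted p = 0.000199), whereas Oasl2 and Ifih1 were the 2 called lower. Of 22 crypt epithelium and LGR5 stem cell markers, 3 rose (the keratins Krt8, Krt18 and Krt19, by 1.15 to 1.21) and 6 fell in LGR5hi cells, and 2 rose and 4 fell in LGR5lo cells, where Ascl2 and Axin2, targets of Wnt signalling, fell by 1.07 and 1.01.

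Promoter sequences are shown for Anxa2, Anxa1 and Anxa8, to set their letters beside the background of all genes. The RefSeq promoter windows used here (GRCm38) hold the 250 bases before the start of 4 of the 7, Anxa1, Anxa2, Anxa8 and S100a6. None was available for Ly6a, Clu and Anxa3. An AP-1 motif, TGANTCA, was searched on both strands, as was a TEAD motif, GGAATG, and matches are in capitals. The 2 motifs do not overlap each other in these windows. Anxa2 held the AP-1 letters 95 bases before the start, as 6.75% of 32851 promoter windows do, and Anxa1 held the TEAD letters 236 bases before the start, on the opposite strand, as 12.6% do. The Anxa8 and S100a6 windows held neither. The Anxa8 window is printed because its tested probe rose most of the 7.
Anxa2 promoter, chr9:69453433-69453682, plus strand: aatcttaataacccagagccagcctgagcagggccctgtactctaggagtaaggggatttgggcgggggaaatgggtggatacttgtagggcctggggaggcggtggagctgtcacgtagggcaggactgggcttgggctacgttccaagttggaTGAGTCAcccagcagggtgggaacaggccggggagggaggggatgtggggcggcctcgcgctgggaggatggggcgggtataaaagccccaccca
Anxa1 promoter, chr19:20390672-20390921, minus strand: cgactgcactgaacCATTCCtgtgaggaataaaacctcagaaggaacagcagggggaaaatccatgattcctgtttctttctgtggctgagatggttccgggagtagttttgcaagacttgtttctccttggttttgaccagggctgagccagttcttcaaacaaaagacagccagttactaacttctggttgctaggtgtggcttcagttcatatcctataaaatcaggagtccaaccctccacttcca
Anxa8 promoter, chr14:34085729-34085978, plus strand: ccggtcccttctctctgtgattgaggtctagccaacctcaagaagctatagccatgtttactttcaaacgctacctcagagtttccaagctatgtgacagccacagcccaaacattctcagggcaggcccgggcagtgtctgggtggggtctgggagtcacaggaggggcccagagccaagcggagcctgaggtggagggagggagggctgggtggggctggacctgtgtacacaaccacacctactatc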

How the data were processed

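The authors deposited 1-colour Agilent scanner files made with Agilent Feature Extraction 10.7.3.1, per the submitters' processing notes, whose gProcessedSignal column is a background-corrected intensity. Probe coordinates are those of mm9, per the file headers. A table of the whole series, also deposited, gives log2 values that were scaled to each array's 75th percentile: on 16 arrays every probe lay within 0.02 of the scanner value so scaled. For non-irradiated LGR5hi replicate 1 the scanner file could not be read in full as held here, so its values were taken from that table and it has no background calls.

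Spots of 1 probe were averaged, control and outlier-flagged spots left out, and probes well above background on at least 4 of 17 arrays kept (41440 probes). Names were looked up through RefSeq where the accession matched (27235 of 55681 probes), which changed the name of 2838 probes. The brightest kept probe stood for each of 27769 genes. limma 3.58.1 in R 4.3.3 fitted the 4 group means on all 17 arrays, with sex added for female minus male; the code was tested on simulated data. Array number limits the precision.

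The 7 genes and all lists were chosen with earlier results of these data known. Genes named beside them are, from each list, up to 4 called genes with the smallest p in each irradiation comparison, the 3 nearest genes of each marker, and the checks Lgr5 and Cdkn1a; other list members named were chosen after their values were seen. Slides 1 and 2 hold replicates 1 and 2, and 3 and 4; slide 3 holds only non-irradiated LGR5lo replicate 5. Same-numbered LGR5hi and LGR5lo samples of an arm correlated in their deviations from group means (0.12 to 0.46, all 8 pairs). They also share sex and slide, so whether they share an animal cannot be told from this. Irradiated and non-irradiated samples of a number share the slide but not the sex, and their correlations, -0.10 to 0.22, overlapped that range. Alternatives covered scaling, background, filters, probes, slides, blocks, array weights and single arrays.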

Additional observations from a re-analysis of the deposited data

Results flagged for a closer look

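One value of the 7 genes stood out within its group. Anxa1 read -0.15 in non-irradiated LGR5lo replicate 2, against -3.42 to -2.87 in the other 4 samples of the group, and the gap to the nearest was 0.83 of the group's whole range. It was 1 of 28 groups examined, where chance gives about 1 in 20. The same array had 95.6% of its spots well above background, against 58.9% to 73.9% on the other arrays with background calls. Its part in the value was not tested.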

How the results depend on the processing

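Over 7 genes, 6 comparisons and all alternatives (1407 values), 1317 kept their direction and their side of the threshold, 50 lost and 16 gained a call, and 24 changed sign. No irradiation or sort difference that was called changed sign. The 7 calls in LGR5hi cells held whichever array was left out, whereas in LGR5lo cells the count of the 7 ranged from 4 to 6, and leaving out non-irradiated LGR5lo replicate 2, the array that stands apart, added Anxa1. Quantile normalization made the second Anxa8 probe the brightest and gave 2.77 in LGR5hi cells. Sign changes were all in values not called, and their cause was not tested. For Clu in the difference of effects they were -0.061 (quantile), -0.12 (median centring) and -0.13 (slide 2), with a range of -0.038 to 0.34 when 1 array was left out, and for Anxa1 in LGR5lo cells -0.075 (slide 1). For LGR5hi minus LGR5lo after 12 Gy they were, for Anxa8, -0.29 (quantile), -0.030 (median centring), -0.045 (normexp), -0.14 (mean of probes) and -0.30 (dimmest probe), with a range of -0.16 to 0.18 when 1 array was left out. For Anxa3 they were 0.036 (normexp), 0.024 (slide 1) and 0.017 (array weights), with a range of -0.17 to 0.12. For female minus male they were, on slide 2, -0.0061 for Clu, 0.11 for Anxa1, 0.13 for Anxa2 and 0.040 for Anxa3, and Clu ranged from -0.023 to 0.17 when 1 array was left out.

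Genes called numbered 3741 for irradiation in LGR5hi, 2080 in LGR5lo, 11 for the difference of effects, 1751 and 2651 between the sorts after 12 Gy and without, and 34 between the sexes. Leaving out 1 array gave ranges, in that order, of 2842 to 5191, 1179 to 2538, 0 to 26, 1062 to 2868, 1439 to 4226 and 18 to 76; after 12 Gy, 1 to 2 of the 7 genes were then called higher and 0 to 1 lower in LGR5hi cells. Counts that moved by over 1.5 times were as follows. Median centring gave 2360 for irradiation in LGR5hi, 1278 in LGR5lo, 2 for the difference, 1062 between the sorts after 12 Gy and 14 between the sexes, and moved the median of all genes to -0.07 and 0.12 in the irradiation comparisons and to 0.16 between the non-irradiated sorts. Normexp gave 2301 for LGR5hi, 2 for the difference, 994 between the non-irradiated sorts and 12 between the sexes, and quantile normalization 21 between the sexes. Slide as a block gave 2 for the difference. With fewer samples, slide 1 alone gave 265, 42, 0, 319, 105 and 3 genes, with 4 of the 7 genes called for irradiation in LGR5hi, 1 in LGR5lo and 0 either way between the non-irradiated sorts, and slide 2 alone gave 1567, 461, 0, 118, 246 and 5, with 3 of the 7 called in LGR5lo cells and 1 called lower in LGR5hi without irradiation. For irradiation in LGR5hi cells, slide 1 alone lost the calls of Clu, Anxa1 and Anxa2, and slide 2 alone those of Clu and S100a6. In LGR5lo cells only Anxa8 was called on slide 1 alone, and Ly6a, Anxa1 and Anxa8 on slide 2 alone. Array weights gave 7092, 3391, 54 and, after 12 Gy, 5029 between the sorts and 123 between the sexes, with 1 of the 7 called in the difference and, after 12 Gy, 2 higher and 1 lower. Only the groups compared gave 788 in LGR5lo, 3114 between the sorts after 12 Gy, with 1 of the 7 lower, and 1156 without. A setting chosen after seeing the data, slide as a block without non-irradiated LGR5lo replicate 2, gave 6664, 3428, 19, 4428 and 81 genes (the last 2 for the sorts after 12 Gy and the sexes), with 2 of the 7 higher and 1 lower after 12 Gy.

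The arm and number as a random block allowed for likeness of same-numbered sorts within an arm. With it, 54 genes and 1 of the 7 (Anxa3) were called in the difference. Between the sorts 2921 genes were called after 12 Gy, with 1 of the 7 (S100a6) lower, and 4215 without, and 18 between the sexes. The call of S100a6 in LGR5lo cells was lost (limma adjusted p = 0.0564). The replicate block, number as a fixed block, ended the call of S100a6 in LGR5lo cells (1.41 ± 0.44, limma adjusted p = 0.0701) and changed no other call of the 7 genes.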
